A study of Mus musculus with 2 samples.

Results

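The retinal neuropeptide genes are 8 genes that encode the precursors of signalling peptides found in retinal neurons: Cck, Sst, Npy, Penk, Tac1, Vip, Adcyap1 and Crh. They were taken from 20666 named genes by matching the RefSeq accession of each non-control probe to a gene symbol. Each gene had 1 probe, so the 8 genes were read by 8 of 55669 probes. The Sst probe was printed on 10 spots and the other 7 on 1 spot each. The study hybridised RNA of mouse retina at postnatal day 14 to 2 one-colour Agilent arrays, 1 for retina labelled Mef2d KO and 1 for wild-type (WT) retina. The MEF2 transcription factor made from Mef2d acts in neurons and muscle, and the comparison asks how retinal expression differs without it. The allele, the strain, the sex and the number of animals are not given in the sources used here. Since each group is a single array, differences could not be checked in replicates and no test was possible.

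Neuropeptides are cut from longer precursors inside dense core vesicles, released by neurons and bound by G protein-coupled receptors, where they modulate transmission over a slower time than the classical transmitters. In the retina most of them are made by sparse subsets of amacrine cells, which also release GABA or glycine. PACAP, the product of Adcyap1, is known instead from the melanopsin ganglion cells that project to the circadian clock. Several precursor genes carry a cAMP response element (CRE), the binding site of CREB, before their start, and the element of Sst is a classical example.

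The bases just before the start are shown so that the gene furthest apart between the arrays, Cck, can be read beside the others. RefSeq windows of build GRCm38.p6 matched 6 of the 8 genes, in 7 windows. The last 100 bases before the start follow, 5′ to 3′ on the strand of the gene, for 1 window per gene, with capitals marking TGACG or CGTCA (the CRE half-site on either strand, which the full site TGACGTCA contains) and TATAAA.
Cck (chr9:121495695-121495794, minus strand): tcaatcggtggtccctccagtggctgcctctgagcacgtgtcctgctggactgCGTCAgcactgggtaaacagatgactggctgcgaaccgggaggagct
Sst (chr16:23890845-23890944, minus strand): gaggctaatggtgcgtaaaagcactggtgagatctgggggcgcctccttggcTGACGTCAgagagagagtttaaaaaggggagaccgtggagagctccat
Npy (chr6:49822610-49822709, plus strand): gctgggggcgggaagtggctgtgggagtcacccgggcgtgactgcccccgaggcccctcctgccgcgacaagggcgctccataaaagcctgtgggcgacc
Tac1 (chr6:7554961-7555060, plus strand): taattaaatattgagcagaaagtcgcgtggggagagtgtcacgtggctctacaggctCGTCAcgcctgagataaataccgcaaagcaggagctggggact
Vip (chr10:5639118-5639217, plus strand): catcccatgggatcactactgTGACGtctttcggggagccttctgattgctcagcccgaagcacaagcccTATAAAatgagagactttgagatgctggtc
Adcyap1 (chr17:93198917-93199016, plus strand): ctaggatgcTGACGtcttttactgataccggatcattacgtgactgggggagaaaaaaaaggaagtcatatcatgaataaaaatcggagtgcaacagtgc

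A half-site lay in the windows (250 bases before to 50 after the start) of 5 of the 6 genes, all but Npy, and in 20.8% of 32851 RefSeq windows of the same length. The full CRE lay in the window of 1 gene, Sst, at position -48, and in 1.79% of all windows. In Cck the half-site began at position -47, on the strand opposite to the gene. The MEF2 site was searched on both strands as 1 letter pattern, and looser forms of the site were not searched. That pattern was in none of the 6 genes' windows and in 0.557% of all windows. These matches describe letters in a short window and are no evidence of binding. Half-sites also began at -197 and -43 in Tac1, at -48 and -45 in Sst, and at -79 in Vip. In Adcyap1 they began at -91 in 1 window and -242 in the other. A link between these sites and the differences between the arrays was not tested.

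Both arrays gave usable signals for these genes. The scanner software called 69.6% of probe spots well above background on the array labelled Mef2d KO and 75.5% on the WT array, and no spot was saturated. All 8 genes were well above background on both, at least 15.1-fold above the lowest signal so called. The 2 Mef2d probes differed by 0.43 ± 0.20 and 0.14 ± 0.21, so neither was lower on the array labelled Mef2d KO. Their place relative to the deleted part was not stated in the labels, which leaves the label unchecked by them. Xist, the RNA of the inactive X chromosome, was read by both of its probes on the array labelled Mef2d KO and by neither in WT (at least 51.7-fold and at least 26.4-fold higher), so that genotype cannot be told apart from the sex of the animals. Of 48 amacrine markers 46 were read on both arrays, as were 22 of 22 ganglion cell markers and 16 of 16 photoreceptor markers.

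Signals below are the scanner's processed signal, a brightness after background subtraction. Differences are log2 values, the array labelled Mef2d KO minus WT, after each array's signal was divided by its 75th percentile (858 for Mef2d KO and 807 for WT). Values after ± are the scanner software's error model for 1 spot on each array and leave out the variation between animals. A gene was called lower or higher when it was at least 2-fold apart and well above background on both arrays. Of the 8 neuropeptide genes 1, Cck, was called lower and 0 were called higher. Among all 16189 named genes so read, 1.74% were called lower and 0.618% higher. The median difference of the 8 genes was 0.17, against -0.0060 over all these genes.

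**Figure D1:**
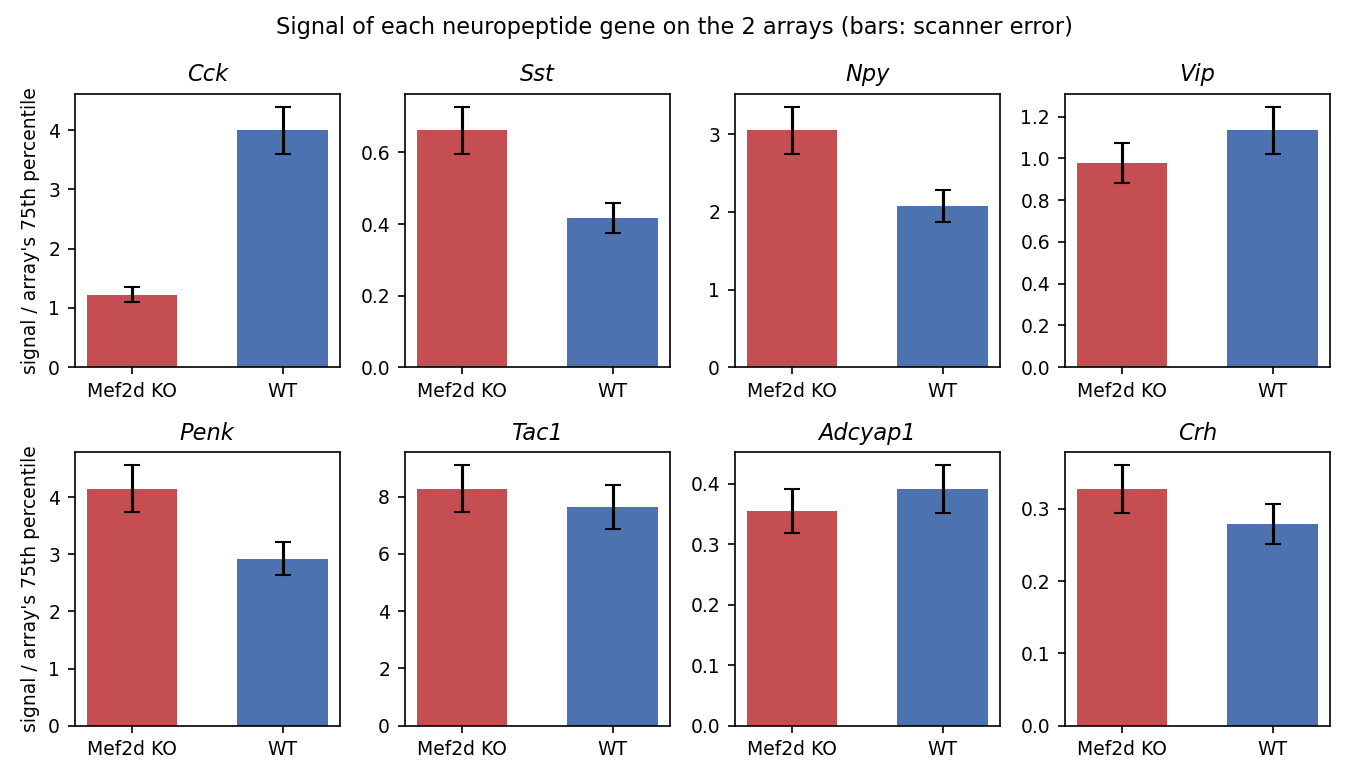
Signal of each neuropeptide gene as a multiple of its array's 75th percentile (vertical axis, linear, a separate scale per gene) on the array labelled Mef2d KO (red, left) and the WT array (blue, right). Error bars are the scanner's error for 1 spot. Cck is 3.27-fold lower in Mef2d KO, and Sst, Npy and Penk are 1.59-fold, 1.47-fold and 1.42-fold higher.

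Cck encodes cholecystokinin, a peptide of the gut and brain that in the retina marks a set of amacrine cells. Its probe had a signal of 1049.9 on the array labelled Mef2d KO and 3230.4 on the WT array. The difference was -1.71 ± 0.20, so that the Mef2d KO level was 30.6% of the WT level, 3.27-fold lower. The gap was 8.37 times the scanner error. It stood at place 65 from the lowest of 16189 genes, and 0.402% of them had a difference as low or lower. Both readings were far from background, 71.5-fold above the lowest signal well above background on the array labelled Mef2d KO and 217-fold on the WT array. Cck stayed past 2-fold under each of the 9 alternatives, between -1.73 and -1.53. Some of these settings could not change it, as stated at the end. Fewer cells of a type and less RNA per cell cannot be told apart in whole retina.

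Markers of lens and cornea moved in the same direction as Cck: of 14 with a reading on each array, 10 were called lower and 1 higher, with a median of -1.65. Their summed level, in units of the 75th percentile, was 18.7 on the array labelled Mef2d KO and 80.7 on the WT array. Lim2 was read on the WT array alone, with a bound of at least 6.60-fold lower in Mef2d KO and a difference of -0.92 under normexp background. Of 16 lens and cornea markers 1, Krt12, was not well above background on either array. The other cornea keratin genes were read on both, Krt5 at 0.44 (its other probe at -1.33) and Krt14 at -0.60. All 7 skeletal muscle markers read on both arrays had negative differences, and 3 were called lower, Tnnt1 (-2.04), Pygm (-1.98) and the dim Ttn (-1.03). Ttn lay within 2-fold with median scaling (-0.85), quantile normalization (-0.54), cyclic loess (-0.62) and normexp background (-0.15). Tnni2, at -0.21 ± 0.22, stood at 0.022 with cyclic loess. Actn3, at -0.48 ± 0.28, stood at 0.0073 with normexp background. The summed muscle level was 2.11 for Mef2d KO and 7.71 for WT. Most of it came from Tnnt1 and Pygm. The log2 levels of Tnnt1 were 0.070 for Mef2d KO and 2.11 for WT, and those of Pygm were -0.44 and 1.54. Of the 12 muscle markers 3, Ckm, Myh2 and Myh4, were not well above background on either array. Myh1 was read on the array labelled Mef2d KO alone, with a bound of at least 1.12-fold higher. Mylpf was read on the WT array alone, with a bound of at least 1.29-fold lower in Mef2d KO. The part of lens or muscle RNA in the Cck difference was not tested. Of 46 amacrine markers read on both arrays none was at least 2-fold apart, against 2.36% of all named genes so read. Their summed level was 242 for Mef2d KO and 248 for WT. The part of amacrine cells in the Cck difference was not tested. By Euclidean distance over the levels of the 2 arrays, the genes nearest to Cck were Cryba4 (0.13), Crybb1 (0.23) and Tnnt1 (0.25). Being picked for levels like those of Cck, they had to share its difference, and levels of different probes are not comparable amounts, so this says nothing more of Cck.

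**Figure D2:**
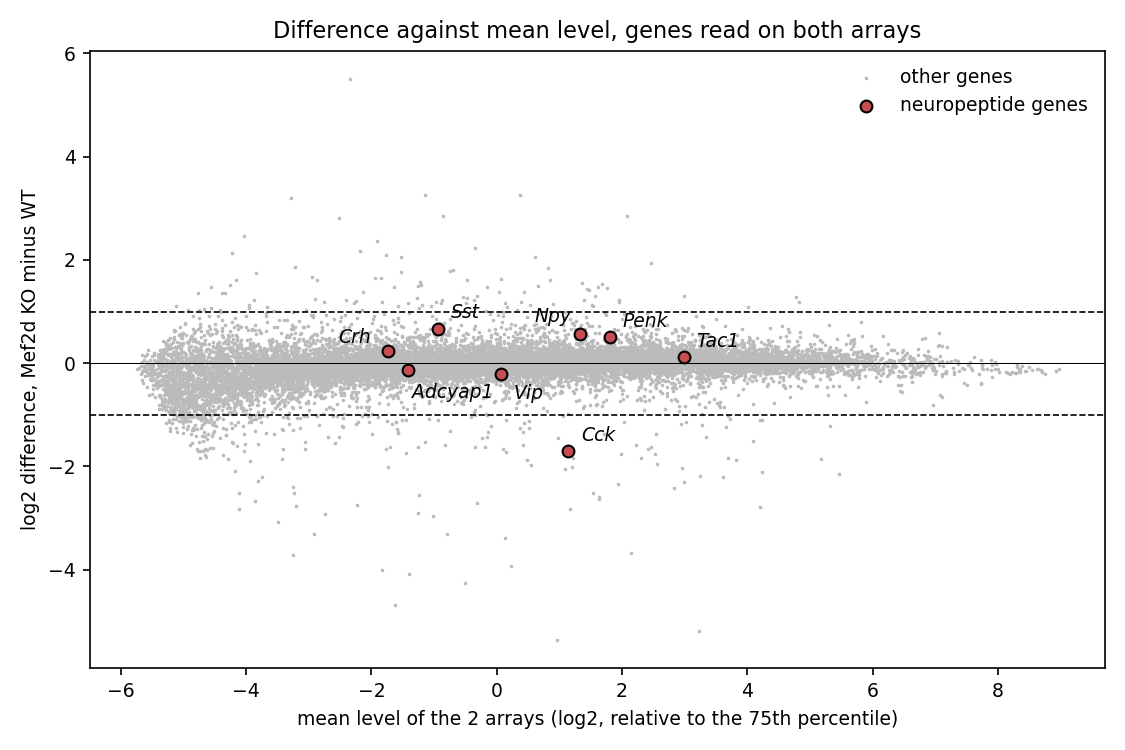
Log2 difference, Mef2d KO minus WT (vertical axis), against the mean log2 level of the 2 arrays relative to the 75th percentile (horizontal axis), for 16189 named genes read on both arrays (grey) and the 8 neuropeptide genes (red). Dashed lines mark 2-fold. Cck lies at -1.71, below the lower line, and the other 7 genes lie between the lines.

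Sst, Npy and Penk were higher on the array labelled Mef2d KO by less than 2-fold. All 3 had differences at or over 0.5 on the log2 scale, which corresponds to 1.41-fold. That smaller limit was chosen after the values were seen, and 2.92% of all named genes passed it upward. With quantile normalization, cyclic loess, normexp background or the 75th percentile of probes well above background, Penk fell short of it (0.48, 0.48, 0.41 and 0.49) and the count was 2.

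Sst encodes somatostatin, an inhibitory peptide of sparse wide-field amacrine cells. Its 10 spots read between 528 and 589 on the array labelled Mef2d KO, with a median of 569.99, and between 318 and 372 on the WT array, with a median of 335. The spots of the arrays did not overlap. The difference over spots was 0.67 with an SD of 0.076, and it ranged from 0.53 to 0.76. This SD is a technical one, since all spots of an array share 1 RNA sample. It was below the error of 0.20 that the scanner model gives a single pair of spots. Over 280 probes with replicate spots and a mean level above -3 the median SD of the difference was 0.061. As a fold, Sst was 1.59-fold higher, and 1.53% of named genes had a difference as high or higher.

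**Figure D3:**
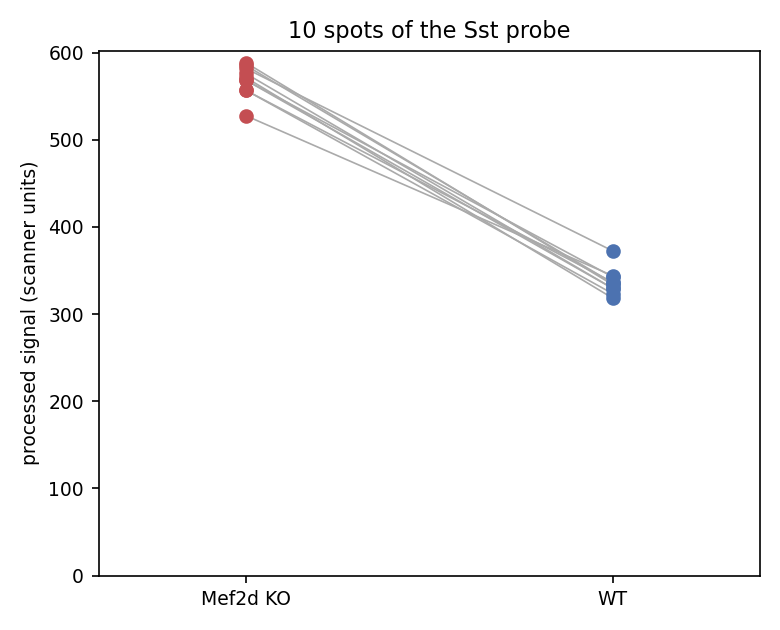
Processed signal in scanner units (vertical axis) of the 10 spots of the Sst probe on the array labelled Mef2d KO (left, red) and the WT array (right, blue). Grey lines join the same spot position. The Mef2d KO spots lie between 528 and 589 and the WT spots between 318 and 372.

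Npy encodes neuropeptide Y, which acts through inhibitory receptors and is made by amacrine cells. It read 2619 on the array labelled Mef2d KO and 1676 on the WT array, a difference of 0.56 ± 0.20 and a fold of 1.47. As high or higher a difference was found in 2.32% of named genes. Penk encodes proenkephalin, the precursor of the opioid enkephalins. It read 3559.8 on the array labelled Mef2d KO and 2362 on the WT array, a difference of 0.50 ± 0.20 and a fold of 1.42, with 2.86% of named genes as high or higher. The differences of Npy and Penk were 2.73 and 2.47 times the scanner error, but each rests on 1 spot per array.

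Tac1 and Crh differed by little. Tac1 encodes the precursor of the tachykinins substance P and neurokinin A. It read 7098 on the array labelled Mef2d KO and 6173 on the WT array, a difference of 0.11 ± 0.20. Crh encodes corticotropin-releasing hormone, the peptide that starts the stress axis in the hypothalamus and is also found in amacrine cells. It read 281 for Mef2d KO and 225 for WT, a difference of 0.23 ± 0.21. The Tac1 difference was smaller than the scanner error, and that of Crh was 1.13 times it.

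Vip and Adcyap1 encode related peptides of the secretin family, vasoactive intestinal peptide and PACAP, which share receptors that raise cAMP. Vip read 839 on the array labelled Mef2d KO and 917 on the WT array, a difference of -0.21 ± 0.20. Adcyap1 read 305 for Mef2d KO and 316 for WT, a difference of -0.14 ± 0.21. With median scaling Vip stood at -0.036 and Adcyap1 at 0.037, and Adcyap1 was the only one of the 8 genes whose sign turned under any of the 9 alternatives. Since all genes together shifted to a median of 0.17 under that scaling, the signs of small differences are read against it.

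**Figure D4:**
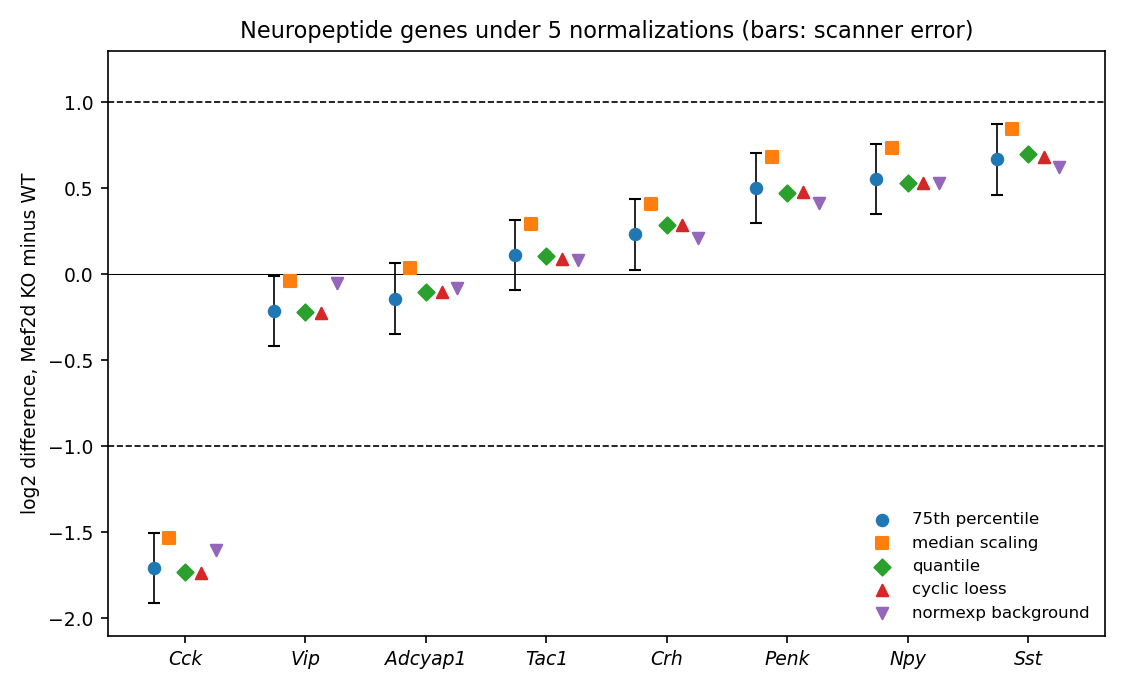
Log2 difference, Mef2d KO minus WT (vertical axis), of each neuropeptide gene (horizontal axis) under 5 normalizations, one marker shape each. Error bars on the circles are the scanner error and dashed lines mark 2-fold. Cck stays below -1 under all 5, from -1.73 to -1.53, and Adcyap1 crosses 0 with median scaling.

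The receptor genes of these peptides read on both arrays stayed within 2-fold, as most genes so read did. Of 24 genes in that list, which includes the CRH-binding protein gene Crhbp, 18 were read on both arrays, 3 on the WT array alone and 3 on neither. None of the 18 was at least 2-fold lower or higher, against 2.36% of all named genes so read. At that share, 0 of 18 says little of the receptors. For the 3 read on the WT array alone only a lower limit of the difference is known. The median of the 18 was -0.062 (0.12 with median scaling). Cckbr, the brain-type receptor of cholecystokinin, differed by -0.11 ± 0.20 by its brighter probe and 0.036 by the other. Cckar, the gut-type receptor, was read on the WT array alone and had a bound of at least 1.34-fold lower in Mef2d KO, with a difference of 0.0095 under normexp background.

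Somatostatin acts on inhibitory receptors encoded by 5 genes, all read on both arrays. Sstr1 had the most negative difference among the 18 receptor-list genes read on both arrays, -0.43 ± 0.21, and -0.19 under normexp background. Its other probe was not well above background on the array labelled Mef2d KO. Sstr5 differed by -0.30 ± 0.20, Sstr2 by -0.15, Sstr4 by -0.10 and Sstr3 by 0.011. Of these 5 receptor genes 4 had small negative differences, and all 5 stayed within 2-fold. The differences of Sstr2 and Sstr4 were smaller than their scanner errors of 0.25 and 0.21. Both turned positive with median scaling (Sstr2 0.025, Sstr4 0.080), quantile normalization (0.14 and 0.038) and cyclic loess (0.20 and 0.061).

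For the neuropeptide Y receptors, Npy1r differed by 0.055 and the dim Npy4r by -0.16, while Npy5r had a bound of at least 1.29-fold lower (0.065 under normexp background). Npy2r and Npy6r were not well above background on either array. Of the opioid receptors, Oprm1, which encodes the mu receptor, differed by -0.038, and its other probe was not well above background on either array. Oprk1, the kappa receptor gene, had a bound of at least 1.38-fold lower (-0.14 under normexp background), and Oprd1, the delta receptor gene, was not well above background on either array. Those bounds come from signals close to the limit of the arrays.

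Tacr1, which encodes the substance P receptor, differed by -0.26, Tacr2 by 0.012 and Tacr3 by -0.30. The other Tacr2 probe was not well above background on either array. Adcyap1r1, the PACAP-selective receptor gene, differed by 0.103. The shared receptor gene Vipr2 had probes at -0.066, 0.25 and -0.085. Vipr1 had 0.18 by its brighter probe and -0.52 by the dimmer one, so its direction is unsettled. Crhr1 differed by -0.057 by its brighter probe and 0.055 by the other, and Crhr2 by 0.17. Crhbp, whose product binds and holds CRH, had the most positive difference among the same 18 genes, 0.54 ± 0.20, and stayed positive with normexp background (0.53).

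**Figure D5:**
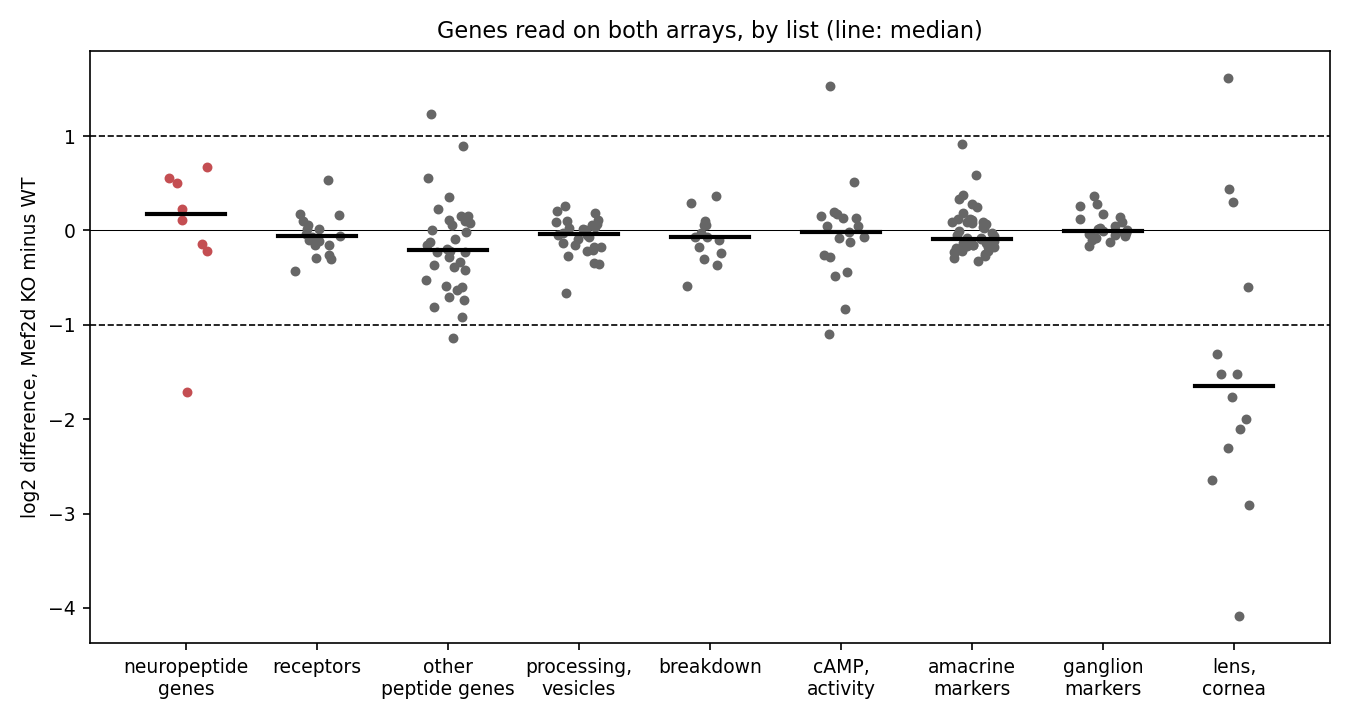
Log2 difference, Mef2d KO minus WT (vertical axis), of the genes read on both arrays in each list (horizontal axis). Each point is a gene, the neuropeptide genes are red, black lines are list medians and dashed lines mark 2-fold. Medians lie between -0.21 and 0.17 in all lists shown except lens and cornea, at -1.65.

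Among 46 other peptide precursor genes, 34 were read on both arrays, 1 was called lower and 1 higher, with a median of -0.21 (-0.029 with median scaling). Pnoc, the precursor of the opioid-like peptide nociceptin, was 2.34-fold higher (1.23 ± 0.21, and 1.08 with normexp background). Its levels were -0.26 on the array labelled Mef2d KO and -1.49 on the WT array. Grp, which encodes gastrin-releasing peptide, was 2.20-fold lower (-1.14 ± 0.21), with levels of -2.78 for Mef2d KO and -1.64 for WT. It fell within 2-fold with median scaling (-0.96) and normexp background (-0.88). Sct, the secretin gene, differed by -0.92 ± 0.20. Pomc, the precursor of beta-endorphin and the melanocortins, differed by 0.90 ± 0.20 and passed 2-fold with median scaling (1.08). Among the opioid precursors Pnoc, Pomc and Penk thus had positive differences, while the dim Pdyn, the dynorphin precursor, differed by -0.34 ± 0.24 and, outside the rule, was named after its value was seen.

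Genes of peptide processing and dense core vesicles read on both arrays stayed within 2-fold. Of 29, 28 gave a reading on each array, and 0 of these were called, against 2.36% of all named genes so read. Their median was -0.039 (0.14 with median scaling). Cpe, the carboxypeptidase that trims precursor fragments, had the largest difference, -0.66 ± 0.20, and all 3 of its probes were negative, down to -0.94. Cadps2, a priming factor of dense core vesicles, differed by -0.36, and by 0.0014 in another of its probes. The synaptotagmin gene Syt9 differed by -0.34 and Pcsk1, a prohormone convertase, by -0.27. Of 14 peptidase genes that break peptides down, 0 were past 2-fold, against the same 2.36%, and the median was -0.072 (0.106 with median scaling). The dim Enpep, an aminopeptidase gene, differed by -0.58, and by -0.14 with normexp background, and Nln, the neurolysin gene, differed by 0.36.

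The regulators of CRE-driven and activity-dependent transcription were of mixed sign. Of 19, 1 was called lower and 1 higher, with a median of -0.016 (0.16 with median scaling). Egr1, an immediate early zinc finger factor, was 2.89-fold higher (1.53 ± 0.20). Fos, an immediate early factor of the AP-1 complex, was 2.14-fold lower (-1.09 ± 0.20) and within 2-fold with median scaling and with normexp background (-0.92 in both). Ppargc1a, a coactivator of mitochondrial genes, differed by -0.84 and Nr4a1, an orphan nuclear receptor, by 0.52.

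Cell markers beside the neuropeptide genes gave these values. The 46 amacrine markers had a median of -0.086 (0.092 with median scaling). Their furthest values were those of Neurod6, a factor of a subset of amacrine cells, at 0.92 ± 0.33, followed by the choline transporter gene Slc5a7 of cholinergic cells at 0.58 ± 0.20, Chat of the same cells at 0.38 and the dim Foxn4 at 0.33. Neurod6 was dim. It passed 2-fold with quantile normalization (1.39), cyclic loess (1.34) and median scaling (1.099), but normexp background put it at 0.34. The 22 ganglion cell markers had a median of -0.0045 (0.17 with median scaling) and ranged from -0.16 to 0.37. Other cell classes held genes further from 0 than Cck. Of 16 photoreceptor markers 2 were called lower, the cone genes Arr3 (-5.36) and Pde6h (-2.42), and the median was -0.086. Of 17 bipolar markers 2 were called lower, Cacna1s (-3.31) and Lrtm1 (-1.02, and -0.84 under median scaling), with a median of -0.16. Of 17 Mueller glia and astrocyte markers Spc25 was called lower (-1.88) and Fabp7 higher (1.45), with a median of -0.14. None was called among the horizontal cell, vascular, pigment epithelium and oligodendrocyte markers, against 2.36% of all named genes read on both arrays. Their medians were -0.15, -0.25, 0.15 and -0.11. With median scaling those of the photoreceptor, bipolar, Mueller glia, horizontal cell and oligodendrocyte lists were positive, at 0.092, 0.023, 0.041, 0.026 and 0.065. Microglia and blood markers, by contrast, had a median of 0.32, with 1 of 13, Cd74, at least 2-fold higher and a summed level of 35.2 for Mef2d KO and 27.8 for WT. Their part in the positive differences of Sst, Npy and Penk was not tested.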

How the data were processed

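RNA of 2 retina samples was hybridised to 1 Cy3 array each. Spot intensities come from the authors' run of Agilent Feature Extraction 10.10.1.1, background-subtracted, per the file headers, with no scaling between arrays. The authors' deposited series table holds the same intensities times 1 constant per array (1.76 for Mef2d KO, 1.88 for WT). Levels were computed by dividing processed signals by the 75th percentile of the 59305 probe spots of the array and taking log2. Control and outlier spots (126 for Mef2d KO, 106 for WT) were left out and spots of a probe averaged. RefSeq tables of GRCm38.p6 named 27244 probes; the array design uses mm9, so gene positions were not taken. The brightest probe, by mean level, stood for its gene. For genes read on 1 array the bound sets the bright reading against the larger of the dim reading and the limit of detection (lowest level well above background).

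The members, the 17 lists and the tests were chosen with earlier results of these data known. Up to 4 genes per list with the largest differences were named, with all receptors, the 3 genes nearest to Cck, and Mef2d and Xist. Pdyn, the muscle genes Ckm, Myh1, Myh2, Myh4, Mylpf, Tnni2 and Actn3, and the keratin genes Krt5, Krt12 and Krt14 were named outside this rule. The lens and cornea genes read on both arrays with the largest differences were not named. Precision is limited by the number of arrays. Scripts were tested on simulated data and used R 4.3.3, limma 3.58.1, Python 3.11.15, numpy 2.4.6, pandas 2.3.3 and matplotlib 3.10.9.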

Additional observations from a re-analysis of the deposited data

How the results depend on the processing

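Alternatives were median scaling, the 75th percentile of probes well above background, quantile normalization, cyclic loess, normexp background, the series table, the mean over probes, no filter on dim probes, and a mean level above -3. The normexp setting used median spot signals with an offset of 50, followed by quantile normalization. Its offset, added to every signal, draws the differences of dim genes toward 0. Under all 9, 1 neuropeptide gene was at least 2-fold lower and 0 higher, and the median of the 8 stayed between 0.15 and 0.35. The mean over probes, no filter and the level limit could not move these genes. Each has 1 probe, well above background on both arrays and with a mean level above -3. The series table could move them only by rounding, because the scaling removes its constant per array. Each gene moved by less than its scanner error, Sst between 0.62 and 0.85, Npy between 0.53 and 0.73 and Penk between 0.41 and 0.68. The share of all named genes past 2-fold was 2.36%, and it was 0.976% with normexp background, 9.51% with no filter and 1.48% above a mean level of -3. The median of skeletal muscle markers was -0.89, and lay between -1.98 and -0.18. No paired analysis was possible because each group has 1 array. Receptors near the background limit have bounds only.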
